A study of Arabidopsis thaliana with 16 samples.

Results

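The loci described here are 171 Arabidopsis thaliana genes from the pericentromeric stretch of chromosome 5, between position 10020653, the start of AT5G28000, and position 14138647 on the TAIR10 build. They were taken by identifier, from AT5G28000 to AT5G35999, without AT5G35480, AT5G35490 and AT5G35600, and kept when 2 or more of the 8 seedling libraries held a value of 1 or above. Of 228 candidate loci, 171 met that rule and 57 did not, 42 of them at 0 in all 8 libraries. The seedling table lists 32833 loci, of which 25016 meet the same rule on values. The loci nearest the limit were AT5G28463, outside it with a second-highest value of 0.836, and AT5G33330, AT5G35640 and AT5G35830, inside it at 1.43. Because the rule read these seedling values, it decided in part which loci look different between seedling groups.

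RNA was sequenced in 16 libraries, 2 replicates in each of 8 groups. The 4 seedling groups, 2 weeks old, were wild type (WT), tcx5/6 (the double homozygous mutant of TCX5 and TCX6), ddm1 (homozygous) and tcx5/6 ddm1, which carries all of these mutations. The other 4 groups were leaf and shoot apical meristem (SAM) of WT and tcx5/6 plants at 1 month. Plants grew on MS plates at 22 °C under 16 h light and 8 h dark. The labels name the mutated genes but not the alleles.

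Pericentromeric heterochromatin is rich in transposons and relics of genes, carries dense DNA methylation and is mostly silent. DDM1 is a chromatin remodeller that lets methyltransferases reach nucleosome-bound DNA, and its loss reactivates many silent elements. The DREAM complex, to which the CXC-domain proteins TCX5 and TCX6 belong in plants, keeps cell-cycle genes down, along with genes that maintain DNA methylation.

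The label of the region was checked against the annotation. RefSeq's TAIR10.1 annotation, which shares coordinates with TAIR10, holds 872 loci in this identifier range, and 641 of them (73.5%) are pseudogenes, against 4.11% on the rest of chromosome 5. None of the loci with that biotype is among the rows used, so they were not analysed here. Of the 171 loci, 166 are annotated as protein-coding, 3 as non-coding RNA, 1 as a tRNA and 1 as a microRNA. Members were sparse where pseudogenes were dense: 4 members lay between 11 and 11.5 Mb, where 89.1% of annotated loci are pseudogenes, and 44 between 13.5 and 14 Mb, where 44.0% are. Loci with that biotype could not be members, so this sparseness follows largely from which loci were available and is no check of the label.

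The members fell into 2 main classes by how they met the rule. In 121, at least 2 of the 4 WT and tcx5/6 libraries and at least 2 of the 4 ddm1 and tcx5/6 ddm1 libraries reached 1. Another 42 met it through the ddm1 and tcx5/6 ddm1 libraries only, and are called switched-on loci below. Of the remaining 8, 4 met it through WT and tcx5/6 libraries only and 4 through a mixture.

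The upstream sequences of 5 loci are shown: the 3 highest switched-on loci, and 2 chromosome-segregation genes that were higher in tcx5/6. No change in level was tested against these sequences. Each is the 300 bases before the annotated gene start, read 5′ to 3′ on the gene's strand from the RefSeq TAIR10.1 genome, with CG dinucleotides, a main context of the methylation that DDM1 helps to maintain, in capitals. The windows are chr5:10823056-10823355 (plus strand) for AT5G28810, chr5:13060735-13061034 (plus) for AT5G34869, chr5:13387176-13387475 (minus) for AT5G35120, chr5:12565781-12566080 (minus) for AT5G33300 and chr5:13700990-13701289 (plus) for MIS12 (AT5G35520).
AT5G28810: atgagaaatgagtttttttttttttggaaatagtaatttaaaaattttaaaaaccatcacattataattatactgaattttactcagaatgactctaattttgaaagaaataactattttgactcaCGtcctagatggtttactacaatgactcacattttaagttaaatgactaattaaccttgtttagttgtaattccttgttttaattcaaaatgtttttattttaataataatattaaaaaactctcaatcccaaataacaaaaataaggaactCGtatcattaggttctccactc
AT5G34869: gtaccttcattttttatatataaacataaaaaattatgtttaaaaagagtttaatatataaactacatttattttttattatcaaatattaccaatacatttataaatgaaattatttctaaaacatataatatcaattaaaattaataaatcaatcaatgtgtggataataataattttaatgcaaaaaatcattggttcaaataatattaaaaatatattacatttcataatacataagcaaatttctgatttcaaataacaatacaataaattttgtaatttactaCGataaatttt
AT5G35120: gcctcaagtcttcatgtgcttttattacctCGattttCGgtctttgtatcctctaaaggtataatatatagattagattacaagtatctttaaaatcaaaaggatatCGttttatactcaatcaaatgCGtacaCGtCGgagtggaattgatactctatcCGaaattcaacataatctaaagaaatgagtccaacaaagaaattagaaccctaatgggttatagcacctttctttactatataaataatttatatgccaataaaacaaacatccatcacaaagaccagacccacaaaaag
AT5G33300: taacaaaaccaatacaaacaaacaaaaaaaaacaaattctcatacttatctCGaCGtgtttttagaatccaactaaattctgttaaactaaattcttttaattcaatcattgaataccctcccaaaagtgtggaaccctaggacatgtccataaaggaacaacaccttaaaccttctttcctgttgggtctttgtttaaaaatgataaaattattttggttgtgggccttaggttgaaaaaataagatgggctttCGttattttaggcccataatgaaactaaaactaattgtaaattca
MIS12: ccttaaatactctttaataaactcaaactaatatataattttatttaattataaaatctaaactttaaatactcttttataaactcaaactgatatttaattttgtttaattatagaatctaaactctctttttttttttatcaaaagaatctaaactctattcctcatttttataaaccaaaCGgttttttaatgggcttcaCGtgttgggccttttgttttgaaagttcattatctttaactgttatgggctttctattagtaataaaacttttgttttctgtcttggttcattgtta

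These windows held 2, 1, 7, 3 and 2 CG dinucleotides in that order. None held an E2F site, searched on both strands as TTTCCCGC, TTTGGCGC, TTTCGCGC or TTTGCCGC, which 1.45% of all loci hold in a window of that length. CHR elements, the other DREAM-associated motif, searched as TTTGAA or TTCGAA on both strands, occurred in AT5G28810, AT5G34869 and MIS12. They occur in 49.5% of all windows. Among the 171 loci, 5 (2.92%) held an E2F match and 87 (50.9%) a CHR match. Switched-on genes had a median GC content of 41.8% and 3.13 CG per 100 bases over the gene, and a median length of 1171 bases. The other 129 members had medians of 37.6%, 2.26 and 2600. These are descriptions with no test.

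Library totals ran from 31.1 to 38.8 M in seedlings and from 45.4 to 59.3 M in leaf and SAM, in the authors' adjusted read counts, which have no length correction. The members held between 0.571% and 0.784% of the seedling totals. WT libraries held the DDM1 transcript at 709 and 648, and tcx5/6 libraries at 1925 and 2061. It stood at 119 and 145 in ddm1, against 569 and 654 in tcx5/6 ddm1. Each ddm1 genotype was thus below its own control, while tcx5/6 ddm1 was close to WT. TCX5 was lower in tcx5/6 (240.2 and 267) than in WT (486 and 497). TCX6 went against its label, with 783 and 760 in tcx5/6 against 163 and 152 in WT, so tcx5/6 here means the libraries so labelled.

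Among tissue markers, the meristem genes STM and WUS were at 0 in every leaf library and present in every SAM library, while CLV3 was at 0 in WT SAM. SAM libraries also held floral organ transcripts, with a summed level of 4 genes from 7726 to 10727 against 40.5 to 88.3 in leaf. All 3 leaf markers (RBCS1A, LHCB1.3 and CA1) were higher in WT SAM than in WT leaf, so the photosynthesis markers do not set the leaf libraries apart. The first ddm1 library held seed storage transcripts, summing to 1601 over 3 genes against 28.4 in the second, and 0 in both tcx5/6 ddm1 libraries. In bulk tissue, fewer cells of a type and less RNA per cell cannot be told apart.

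One property of the deposited values bears on all comparisons. In WT and tcx5/6 seedlings and in both leaf groups, the same loci were at 0 in both replicates (8786 loci in WT seedlings, 8882 in tcx5/6). In ddm1, tcx5/6 ddm1 and both SAM groups, between 1713 and 1825 loci were at 0 in a single replicate. No nonzero value was equal between replicates in any group. Low values in the first set of groups therefore depended on both replicates, and the effect of this on p-values was not tested. In seedlings the property separates groups with and without ddm1, so it cannot be told apart from ddm1. The property also separates leaf from SAM, so in WT SAM against WT leaf it cannot be told apart from tissue. It does not differ within tcx5/6 against WT, or within tcx5/6 ddm1 against ddm1, but it can still enter their p-values. The limma fit used below takes a single spread per locus from all seedling groups together, and likewise from all leaf and SAM groups. With the compared groups fitted alone, members with limma adjusted p under 0.05 went from 63 to 25 in tcx5/6 ddm1 against ddm1. In tcx5/6 against WT seedlings they went from 14 to 17. The part of the property in these changes was not tested.

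**Figure D1:**
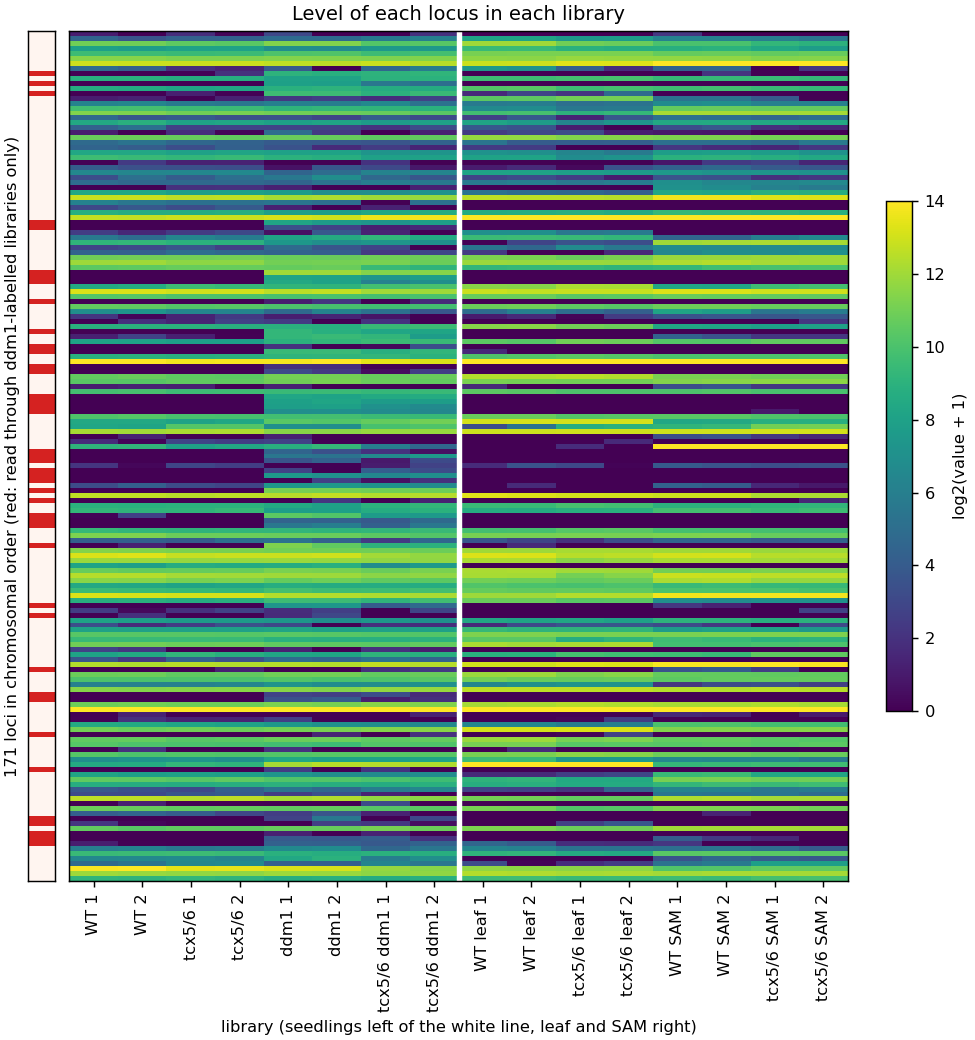
Level of each of the 171 loci (rows, in chromosomal order) in each of the 16 libraries (columns), as log2 of the authors' value plus 1. The red marks on the left show the 42 switched-on loci, which lie along the whole stretch, are dark in WT and tcx5/6 seedlings, and are mostly dark in leaf and SAM too.

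Switched-on loci made up 42 of the 171 members. All had been taken in because they were read in ddm1 or tcx5/6 ddm1 and hardly in WT or tcx5/6, so their rise is a description with no test. Of the 42, 34 were at 0 in all 4 WT and tcx5/6 libraries, and the highest value any of them reached there was 5.54. In ddm1, 18 had a mean of at least 100, 4 of at least 1000, and 20 were below 20. Summed over all 42, ddm1 libraries held 15708 and 13637 and tcx5/6 ddm1 libraries 8849 and 9549. WT libraries held 4.73 and 10.02, and tcx5/6 libraries 1.46 and 4.26.

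The highest was AT5G28810, annotated as an Ulp1 protease family protein, a family of SUMO proteases whose relatives are carried by plant transposons. It stood at 4174 and 3930 in ddm1, against 2732 and 2822 in tcx5/6 ddm1, and at 0 in the other 4 seedling libraries. AT5G34869, an uncharacterized protein, stood at 2276 and 2139 in ddm1 and at 2035 and 1923 in tcx5/6 ddm1. All 4 WT and tcx5/6 libraries listed it at 0.

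AT5G35120, a MADS-box family protein, the class of transcription factors that includes floral regulators, stood at 2514 and 1503 in ddm1. In tcx5/6 ddm1 it was at 527 and 515, below both ddm1 libraries. AT5G35050, with a DUF1985 domain, was at 1435 and 1174 in ddm1, against 207 and 185 in tcx5/6 ddm1. Both were at 0 in tcx5/6 and at most 5.54 in WT.

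AT5G28235, the second Ulp1 family locus, was at 806 and 763 in ddm1, against 510 and 722 in tcx5/6 ddm1. Of its 31-base words, 88.2% recur elsewhere in the genome, so its reads may belong to a copy and its value is uncertain. AT5G28810 shares 33.5%, so its value is uncertain as well, and AT5G34869 shares none. Of all switched-on loci, 32 of 42 were under 10%.

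Next came AT5G30360, uncharacterized, at 697 and 710 in ddm1, against 463 and 587 in tcx5/6 ddm1. AT5G28090, uncharacterized, was at 537 and 452 in ddm1, against 531 and 577 in tcx5/6 ddm1, where the 2 groups overlapped. AT5G29050, a DUF3287 protein, was at 612 and 454 in ddm1, against 311 and 303 in tcx5/6 ddm1, without overlap. AT5G32590, a myosin heavy chain-like protein, went the other way, at 306 and 283 in ddm1, against 358 and 397 in tcx5/6 ddm1.

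The last 3 of the 12 highest were AT5G32613, a zinc knuckle protein of the kind found in retroelement proteins, AT5G28823 and AT5G28560, with ddm1 means of 274, 269 and 252. By annotation the 42 comprised 13 uncharacterized proteins, 4 with DUF3287 or DUF1985, 2 Ulp1 proteases, 2 zinc knuckle proteins and 2 myosin heavy chain-like proteins. Another 3 are named as transposon proteins, and 16 carry other names. The loci named as transposon proteins were low, with means over the 4 ddm1 and tcx5/6 ddm1 libraries from 1.87 to 9.999.

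**Figure D2:**
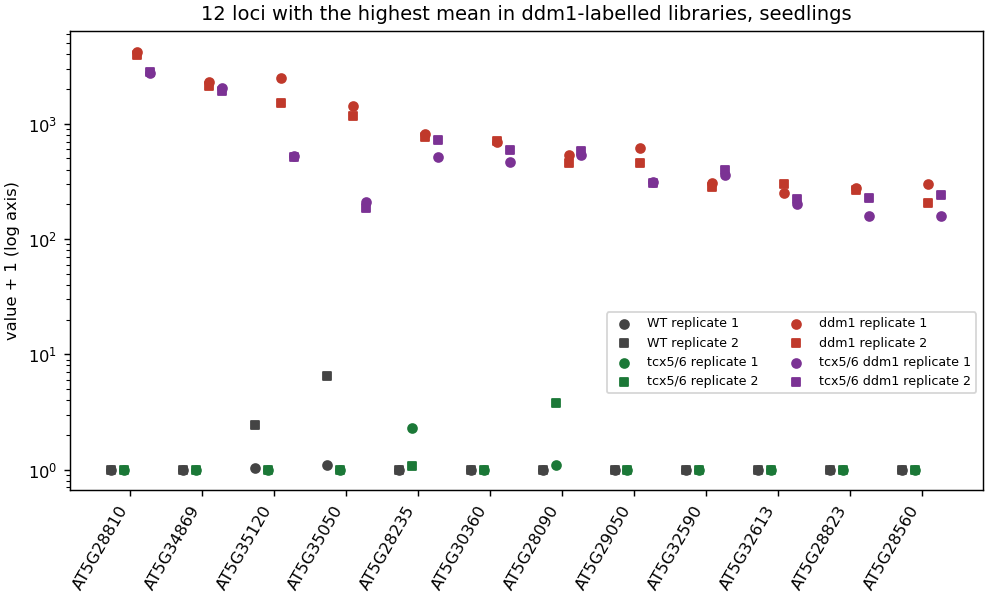
Value plus 1 (log axis) of the 12 switched-on loci with the highest mean over the ddm1 and tcx5/6 ddm1 seedling libraries, 1 point per library. The WT and tcx5/6 points lie at or near 1, which is a value of 0, and all ddm1 and tcx5/6 ddm1 points lie far above them. AT5G35120 and AT5G35050 are lower in tcx5/6 ddm1 than in ddm1.

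Summed levels of the switched-on loci were lower in tcx5/6 ddm1 than in ddm1. The mean in tcx5/6 ddm1 was below that in ddm1 for 33 of the 42 and above it for 9. Among the 18 with a ddm1 mean of at least 100 it was lower for 16, with ratios from 0.136 to 1.28 and a median of 0.698. These 18 were picked by the same ddm1 values that the ratio divides by, which favours ratios below 1. The ratios are therefore a description only. Both tcx5/6 ddm1 libraries lay below both ddm1 libraries for 22 of 42 loci and above for 4. The share of all 25016 loci with such a fall was 34.5%, and with such a rise 30%. The limma-trend test across all loci called 10 of the 42 lower and 2 higher, where 21.6% and 17.7% of all loci were called. No share over all loci was counted beside the 33 and the 9. The rule used these libraries, so no reading is taken from any of these counts. The DDM1 transcript moved with this difference, at a mean of 132 in ddm1 and 612 in tcx5/6 ddm1, and its part in the result was not tested.

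The lowest ratios among the 18 were in AT5G35375 (0.136), AT5G35050 (0.150), described above, and AT5G28180 (0.161). AT5G35375, uncharacterized, was at 158 and 166 in ddm1 and at 16.0 and 28.1 in tcx5/6 ddm1. AT5G28180, a kelch repeat protein, was at 247 and 232 in ddm1 and at 45.6 and 31.7 in tcx5/6 ddm1. AT5G35375 and AT5G28180 were chosen after their values were seen, and both were at 0 in all WT and tcx5/6 libraries.

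In leaf and SAM the switched-on loci stayed low in both WT and tcx5/6, the only genotypes there. All libraries were below 1 for 31 of the 42, 6 passed the filter on low values, and the highest value was 28.3, in AT5G28235 in the second tcx5/6 leaf library. CYP79A4P, named as a cytochrome P450 pseudogene, was at 23.3 and 15.5 in WT leaf and 2.49 and 2.24 in tcx5/6 leaf. CYP79A3P, its neighbour, reached 16.5 in 1 WT SAM library. TT2, the MYB regulator of seed coat tannins, was at 10.7 and 14.6 in WT SAM, and LBD35 at 5.39 and 13.2 in tcx5/6 leaf.

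The test used from here on was limma-trend on log2(value + 1) across all loci of a table, and "called" means a Benjamini-Hochberg adjusted p under 0.05. Log2 changes are on that scale, which understates the change of low loci. In ddm1 against WT, 55 of 171 members were called higher and 42 lower. Over all loci 26.3% were called higher and 23.3% lower, or 49.6% in all, so calls are common everywhere. Of the 55 higher, 31 are switched-on loci, which the rule favours, and without the first ddm1 library, the one with seed storage transcripts, 88 of 171 were called. Among the 129 other members, 24 were called higher and 42 lower, with a median log2 change of -0.14 against 0 for all loci tested. The 129 are what remains once the switched-on loci are set aside, while the figures over all loci keep loci of that kind. The 2 sets are therefore unlike, and no reading is taken from the excess of falls.

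AT5G35735, an auxin-responsive family protein, was at 382 and 386 in WT and at 4481 and 5698 in ddm1. It rose by log2 3.72 ± 0.11 (SE, n = 2, limma adjusted p = 2.5e-07), without overlap. AT5G29560, a caleosin-related protein of the lipid-droplet family, was at 1.31 and 5.69 in WT and 619 and 714 in ddm1 (log2 7.40, limma adjusted p = 4.2e-05). It resembles the switched-on loci but was read in WT.

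XGD1, a xylosyltransferase that modifies pectin, was at 352 in both WT libraries and 1369 and 1224 in ddm1 (log2 1.88, limma adjusted p = 1.3e-05). The glycine-rich AT5G28630 was at 49.8 and 29.9 in WT and 290.5 and 392.3 in ddm1 (log2 3.09). All ddm1 values of these genes lay above all WT values.

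Falls included AN3, a transcriptional coactivator of leaf cell proliferation, at 566 and 622 in WT and 172 and 120 in ddm1 (log2 -2.04, limma adjusted p = 5.1e-05). AT5G33300, a chromosome-associated kinesin-like protein, fell from 316 and 285 to 127 and 122 (log2 -1.27, limma adjusted p = 4e-05). On the log2 scale iqd33, an IQ-domain protein, fell by 1.32, GUS3, a glucuronidase, by 1.303 and DES1, a cysteine desulfhydrase, by 1.04. Meristem markers were lower beside these falls, summing over 4 genes to 527 and 570 in WT and to 154 and 90.2 in ddm1, with KNAT1 the 1 called lower. Their part in the falls was not tested.

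Known genes of the stretch were grouped by role, from a list of 36 genes of which 34 were members. ANX2 and CDR1 did not meet the rule. Over all loci 23.3% were called lower in ddm1 and 26.3% higher, and the counts by role are descriptions beside these shares with no test. Among 8 plastid and metabolism genes, 5 were called lower in ddm1 and none higher, with a median log2 change of -0.47. They included CAC2, a subunit of plastid acetyl-CoA carboxylase (log2 -0.80), GS2, the plastid glutamine synthetase (-0.69), and CUE1, the plastid phosphoenolpyruvate translocator (-0.62). Leaf markers did not move one way beside them, since CA1 was lower in ddm1 and LHCB1.3 higher. The leaf markers summed to 1008074 and 1049829 in WT and to 1578951 and 1537747 in ddm1. Floral organ markers had 2 of 4 called higher in ddm1, and seed markers 2 of 3. The part of these markers in the counts was not tested. Of 11 transcription and growth regulators, 4 were lower and none higher. Of 6 signalling genes 1 was lower, the kinase NEK3. Of 9 genes of core cell functions 1 was higher, the chaperone BIP1, and 1 lower, the fimbrin FIM5. BIP1 shares 31.4% of its 31-base words with the rest of the genome, so its value is uncertain.

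The same change on the tcx5/6 background was read in tcx5/6 ddm1 against tcx5/6, which shares no library with ddm1 against WT. Here 51 members were called higher and 41 lower, where 25.7% of all loci were called higher and 26% lower, or 51.7% in all. Of the 129 other members, 24 were higher and 41 lower. Of their 24 rises, 14 were shared between the comparisons (58.3% of each). Of the falls, 29 were shared, 69.0% of those in ddm1 and 70.7% of those in tcx5/6 ddm1. Over all loci tested, the shared rises were 69.4% and 71.0% of each list and the shared falls 67.4% and 60.5%. As the 129 leave out the switched-on loci and these shares keep loci of that kind, no reading is taken from the counts or shares of the 129. A single member was called in opposite directions, EXT13, an extensin-like cell wall protein. Of all 25016 loci tested, 425 were.

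AT5G35735 was at 608 and 545 in tcx5/6 and 5519 and 5205 in tcx5/6 ddm1 (log2 3.22 ± 0.11 SE, n = 2, limma adjusted p = 5.2e-07). XGD1 rose from 265 and 326 to 1649 and 2040 (log2 2.64). AN3 fell from 497 and 518 to 154 and 126 (log2 -1.86). AT5G29560 was at 1.31 and 0.0682 in tcx5/6 and at 598 and 212 in tcx5/6 ddm1. All 4 genes moved as they did in ddm1 against WT.

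By role, 6 of 8 plastid and metabolism genes were called lower on this background and none higher. Of 11 transcription and growth regulators, 6 were lower against 1 higher. Over all loci 26% were called lower and 25.7% higher. Genes of core cell functions had 4 of 9 higher and 1 lower. Signalling genes had 3 lower and 1 higher of 6. The single rise was WNK9, a WNK-family kinase, from 2.69 and 1.67 to 24.9 and 57.2. Tissue markers moved with this comparison. Of 3 meristem markers tested, 2 were called lower, with a summed level from 733 and 723 in tcx5/6 to 198 and 95.0 in tcx5/6 ddm1. Of 4 floral organ markers 2 were called higher, from 36.1 and 42.1 to 278 and 264. Of 3 leaf markers 1, CA1, was called lower, with sums of 811486 and 864225 against 745251 and 628155. Their part in these counts was not tested.

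**Figure D3:**
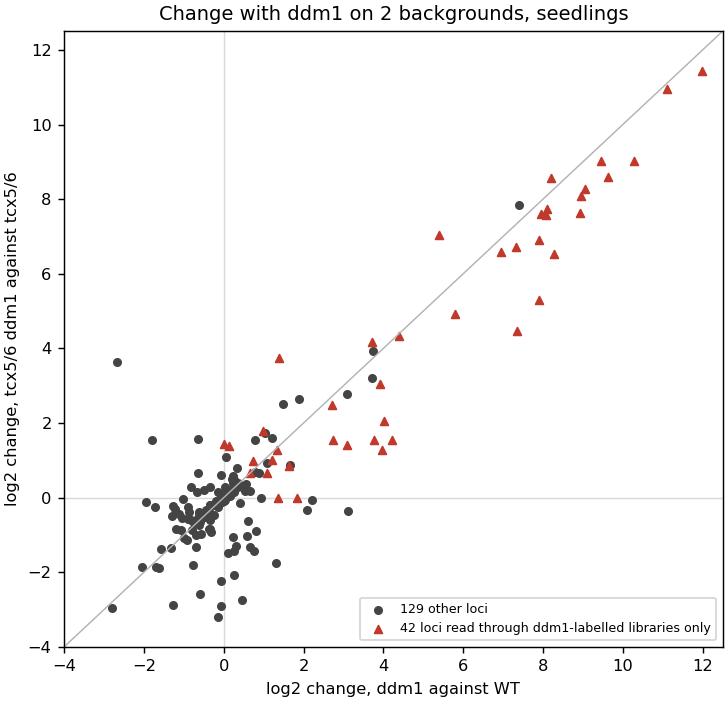
Log2 change of each of the 171 loci in ddm1 against WT (x axis) and in tcx5/6 ddm1 against tcx5/6 (y axis), with the line of equal change. The 42 switched-on loci (red triangles) lie mostly above 0 on both axes, which the rule that chose them brings about. The 129 other loci are grey points.

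In tcx5/6 against WT seedlings few members were called. Of 171 members, 5 were called higher and 9 lower, or 8.19%, where 7.26% of all loci were called higher and 4.35% lower, 11.6% in all. Leaving out WT replicate 1, WT replicate 2, tcx5/6 replicate 1 or tcx5/6 replicate 2 left 4, 2, 3 and 2 calls, so the count rests on every library. Of the named loci, AT5G33300 and AT5G28830 kept their call in every alternative.

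AT5G33300 was at 316 and 285 in WT and 1226 and 1206 in tcx5/6, a rise of log2 2.01 ± 0.11 (SE, n = 2, limma adjusted p = 4.3e-05). On the ddm1 background it was at 127 and 122 in ddm1, against 960.5 and 1125 in tcx5/6 ddm1 (log2 3.05, limma adjusted p = 6.1e-06). In leaf it was at 8.89 and 38.7 in WT and 424 and 488 in tcx5/6 (log2 4.53 ± 0.55 SE, n = 2, limma adjusted p = 0.00073). In SAM it was at 576 and 633 in WT and 2063 and 2151.5 in tcx5/6 (log2 1.80 ± 0.55 SE, n = 2, limma adjusted p = 0.047). The 2 genotypes did not overlap in any tissue. The SAM call was lost without any 1 of the 4 SAM libraries (limma adjusted p from 0.19 to 0.25), with no filter (0.16) and with a pseudocount of 0.1 (0.077). The leaf call was lost when the compared groups were fitted alone (0.065).

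MIS12, a kinetochore protein that links centromeres to the spindle, was at 278 and 361 in WT seedlings and 591 and 438 in tcx5/6. It was higher by log2 0.68 (limma adjusted p = 0.047), a call that was lost under each alternative tried (0.053 to 0.33), with the same sign. In leaf it went from 477 and 484 to 929 and 831 (log2 0.87 ± 0.08 SE, n = 2, limma adjusted p = 0.00026). In SAM it went from 806 and 724 to 1522 and 1507 (log2 0.99 ± 0.08 SE, n = 2, limma adjusted p = 0.0002). Its leaf and SAM calls held in all alternatives.

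AT5G28830, a calcium-binding EF hand protein, was at 365 and 405 in WT seedlings and 762 and 677 in tcx5/6 (log2 0.90, limma adjusted p = 0.002). It was at 2921 and 2861 in WT leaf and 4744 and 4626 in tcx5/6 leaf, and at 317 and 297 in WT SAM and 792 and 908 in tcx5/6 SAM. AT5G35735, which also rose with ddm1, was higher in tcx5/6 by log2 0.58 in seedlings, 0.59 in leaf and 0.30 in SAM. These 4 loci, AT5G33300, MIS12, AT5G28830 and AT5G35735, were the members called higher in all 3 tissues. How many of all loci were called alike in all 3 tissues was not counted. No reading about the region is therefore taken from the number of such members, higher or lower.

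Members called lower in all 3 tissues were CYSD2, AT5G35170 and GS2. CYSD2, a cytosolic cysteine synthase, was at 1995 and 1985 in WT seedlings and 1460 and 1349 in tcx5/6 (log2 -0.50, limma adjusted p = 0.0032). It fell by 1.11 on the log2 scale in leaf and by 0.85 in SAM. AT5G35170, an adenylate kinase family protein, fell by 0.43, 0.67 and 0.56 in seedlings, leaf and SAM. GS2 fell by 0.47, 0.47 and 0.87 in the same order. CYSD2 lost the seedling call without WT replicate 2 (limma adjusted p = 0.05, just past the threshold) or tcx5/6 replicate 2 (0.051). The other 2 lost it without any 1 of the 4 libraries (0.11 to 0.28), and AT5G35735 likewise (0.074 to 0.16).

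**Figure D4:**
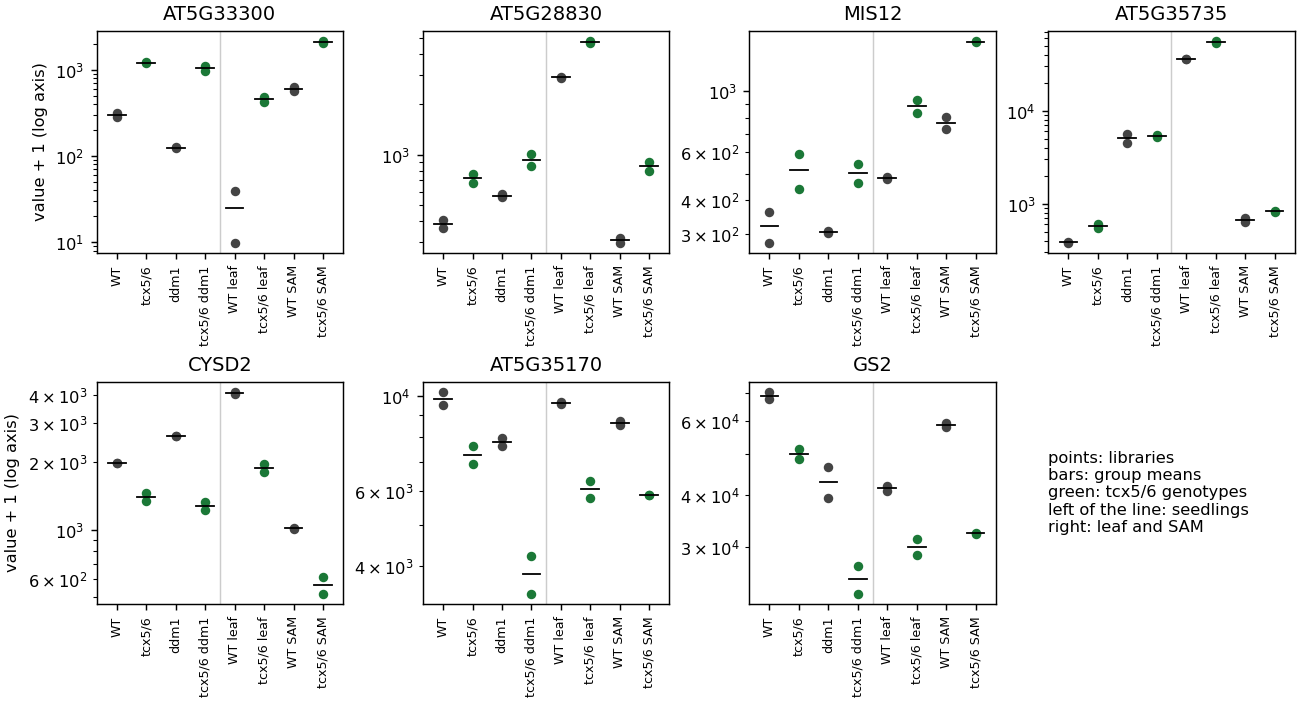
Value plus 1 (log axis, scaled per panel) of the 7 loci called in the same direction in tcx5/6 against WT in seedlings, leaf and SAM. Points are libraries, bars are group means and green marks tcx5/6 genotypes. AT5G33300, AT5G28830, MIS12 and AT5G35735 are higher and CYSD2, AT5G35170 and GS2 lower in tcx5/6 than in the WT of the same tissue.

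In leaf, 122 of the 171 members entered the test, and 17 were called higher and 40 lower in tcx5/6, where 21.3% of all loci were called higher and 21.4% lower, 42.6% in all. Their median log2 change was -0.14 against 0 for all loci. The kinase gene WNK9 went from 174 and 140.3 to 18.9 and 2.56. Next in size, among called loci without overlap and with a mean of at least 20 in the higher group, was the fall in AT5G35732, uncharacterized, from 762 and 705 in WT to 171 and 177 (log2 -2.07 ± 0.22 SE, n = 2, limma adjusted p = 0.00036). AT5G35450, a CC-NBS-LRR disease resistance protein, went from 1368 and 1357 to 408 and 574 (log2 -1.49). PTM, a PHD-type transcription factor of the chloroplast envelope, went from 4599 and 4425 to 2121 and 2845 (log2 -0.88).

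Of the 6 signalling genes, 5 were lower in tcx5/6 leaf and none higher, where 21.4% of all loci were called lower and 21.3% higher. PHYC, a phytochrome photoreceptor, fell by 0.84 on the log2 scale, HK2, a cytokinin receptor, by 0.66 and NEK3 by 1.06. Core cell functions had 4 of 9 higher and 2 lower, among the higher the ribosomal protein gene AT5G28060 (log2 0.44) and MIS12. Plastid and metabolism genes had 2 higher and 3 lower of 8, and transcription and growth regulators 1 higher and 2 lower of 11. All 3 leaf markers were higher in tcx5/6 leaf, summing to 384666 and 367684 against 259731 and 253366, and their part in these counts was not tested.

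In SAM, 12 members were called higher and 28 lower, where 15.6% of all loci were called higher and 14.5% lower, 30.1% in all. Leaving out WT SAM replicate 1, WT SAM replicate 2 or tcx5/6 SAM replicate 2 left 25 calls each. Plastid and metabolism genes had 6 of 8 lower and none higher, with GS2 from 58203 and 59450 to 32160 and 32341, PAP26, a purple acid phosphatase, lower by log2 -0.65, and RPS1, the plastid ribosomal protein, by -0.45. All 3 leaf markers and 2 of 4 floral organ markers were also lower in tcx5/6 SAM. Leaf markers summed to 866177 and 877898 in WT SAM and 576608 and 591340 in tcx5/6 SAM, and floral markers to 10727 and 10174 against 7744 and 7726. Of 4 meristem markers, CLV3 was called higher and WUS lower. Their part in the result was not tested.

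Of the members called higher in tcx5/6, 5 were shared between leaf (29.4%) and SAM (41.7%), and of those lower 14 were shared (35.0% of leaf and 50% of SAM). Over all loci tested the shares were 41.2% and 56.1% for the higher calls and 24.7% and 36.4% for the lower ones. In opposite directions 3 members were called, beside 823 of all 24429 loci tested. AT5G28050, the guanosine deaminase GSDA, was at 3108 and 3081 in WT leaf and 3630 and 3552 in tcx5/6 leaf, but at 3372 and 3296 in WT SAM and 2709 and 2826 in tcx5/6 SAM. AT5G35200, an ENTH/ANTH/VHS protein of vesicle coats, was lower in tcx5/6 leaf (log2 -0.22) and higher in tcx5/6 SAM (0.25), and AT5G35740, a carbohydrate-binding X8 protein, higher (1.11) and lower (-1.18). The difference between tissues was not tested.

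The effect of tcx5/6 was also read on the ddm1 background. In tcx5/6 ddm1 against ddm1, 22 members were called higher and 41 lower, where 17.7% of all loci were called higher and 21.6% lower, 39.3% in all. Among the 129 other members it was 20 and 31. Fitted on these groups alone, 25 members were called, and without the first ddm1 library 53. The largest fall was in AT5G33370, a GDSL lipase known as CUS2, a cutin synthase family member, from 459 and 647 to 61.6 and 24.5 (log2 -3.77 ± 0.38 SE, n = 2, limma adjusted p = 0.00017). BZO2H3, a bZIP factor of energy signalling, fell from 1676 and 1775 to 722 and 559 (log2 -1.44), and AT5G35970, a P-loop NTPase, from 9585 and 9038 to 3531 and 2962 (log2 -1.52). Of the role groups, core cell functions had 5 of 9 higher and 1 lower, and plastid and metabolism genes 4 of 8 lower and 1 higher. Of the leaf markers 2 of 3 were lower here (summed level 1578951 and 1537747 in ddm1, 745251 and 628155 in tcx5/6 ddm1), as were all 3 seed markers, and their part in the result was not tested.

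The interaction, which asks whether tcx5/6 acts differently with and without ddm1, was called for 25 members (14.6%), 11 higher and 14 lower. Over all loci 5% were called higher and 9.51% lower, 14.5% in all, so the members were near the general share. The count rested on single libraries. Without WT replicate 1 it fell to 5, without WT replicate 2 to 7, without tcx5/6 replicate 1 or 2 to 5, and without ddm1 replicate 2 to 11. BZO2H3, EXT13 and AT5G28150 kept the call in all alternatives. BZO2H3 was at 1418 and 1462 in WT and 1693 and 1749 in tcx5/6, against a fall between ddm1 and tcx5/6 ddm1 (interaction log2 -1.70 ± 0.16 SE, n = 2, limma adjusted p = 0.00079). EXT13 stood at 274 and 234 in WT and at 401 and 374 with tcx5/6. With ddm1 it stood at 397 and 459, and with both at 114 and 181. AT5G28150, a DUF868 protein, was at 257 and 271 in ddm1 and between 418 and 517 in the other 3 groups.

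The pathway that keeps such loci silent was described from a list of 12 genes outside the region. In tcx5/6 seedlings 7 of 12 were called higher, where 7.26% of all loci were, and none lower. Among them were CMT3, a plant-specific methyltransferase (log2 1.98), and VIM2, a methylcytosine reader (2.83). In ddm1 against WT 8 of 12 were lower, where 23.3% of all loci were, and none higher. In tcx5/6 ddm1 against ddm1 8 were higher, beside 17.7% of all loci, and 1 lower, beside 21.6%. The lower one was CMT2, which methylates transposons. In tcx5/6 leaf 8 were higher and 3 lower, beside 21.3% and 21.4% of all loci. In tcx5/6 SAM 7 were higher and none lower, beside 15.6% and 14.5%. These genes also differed by tissue: in WT SAM against WT leaf 10 of 12 were higher, beside 43.2% of all loci, and none lower. Meristem markers were lower in ddm1, with sums of 527 and 570 in WT and 154 and 90.2 in ddm1. Their part in the counts was not tested.

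Between tissues, WT SAM against WT leaf had 55 members called higher and 44 lower of 122, where 43.2% of all loci were called higher and 35.6% lower, 78.8% in all. AT5G33370 was listed at 0 in both WT leaf libraries and at 27191.5 and 27201.6 in WT SAM. AN3 was at 0.0497 and 6.41 in WT leaf and 4047 and 4495 in WT SAM. AT5G35735 went the other way, at 35914 and 36331 in WT leaf and 632 and 709.5 in WT SAM (log2 -5.75 ± 0.06 SE, n = 2, limma adjusted p = 1.3e-09). Of 11 transcription and growth regulators, 8 were higher in SAM and 1 lower, PHL1, a phosphate-starvation regulator. Of 8 plastid and metabolism genes 7 were higher and 1, PAP26, lower.

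A block of neighbouring genes from AT5G28320 to AT5G28460 needs caution. In 11 of its 13 members, between 53.1% and 100% of 31-base words recur elsewhere in the genome. The other two, AT5G28410 and AT5G28420, hold 2.78% and 0.242%. AT5G28400, annotated as an embryo defective protein, was lower in tcx5/6 ddm1 than in ddm1 (log2 -0.89), and AT5G28442, a RIC1-like protein, higher (1.58), but such reads may have been shared between copies. Among the 129 members that are not switched-on loci, 11 exceeded 50% and 109 were under 10%.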

How the data were processed

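RNA-seq of 16 libraries was analysed in 2 tables of 8 columns. The unit is signal: the authors deposited gene counts adjusted with edgeR, and the submitters' processing notes also name HISAT2 and TAIR10. Versions, counting tool and strand use are not given here. They are not raw counts, and whole reads were not recovered, so a count test was not used. Values below 1e-06 were read as 0. In 4 groups both replicates had identical sets of loci at 0. Tissue was taken from titles, since the tissue field reads seedlings throughout. The labels do not say whether replicates grew separately, so p-values reflect only how far the sequenced samples spread. Depth in reads is unknown.

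Each table was fitted separately with limma 3.58.1 (R 4.3.3), limma-trend on log2(value + 1), for loci reaching 1 in 2 or more libraries, with Benjamini-Hochberg adjustment over all loci. The pipeline was tested on simulated counts, drawn independently with the same spread setting for all loci and groups, without the interaction. The simulation did not include the shared zeros of the deposited values, so it does not show their effect on the calls. Named loci were up to 10 rises and 10 falls per comparison among called loci without overlap and with a mean of at least 20. For the interaction they were up to 5 in each direction, with a mean of at least 20 in some group and no rule on overlap. The 12 highest switched-on loci and the role lists were named as well. The members and lists were chosen with earlier results of these data known. Sequence features and figures used Python 3.11.15 and RefSeq TAIR10.1. Replicate numbers did not pair the samples (correlations of same-numbered deviations from -0.081 to 0.103). Alternatives were rescaling, no filter, a pseudocount of 0.1, the compared groups alone, a replicate block, and leaving out each library.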

Additional observations from a re-analysis of the deposited data

Results flagged for a closer look

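By the interaction test in limma, the change with tcx5/6 differed between seedlings with and without ddm1 for 25 members (14.6%). Over all loci 14.5% were called, so the count is near the general share and no reading is taken from it about the members. Given here are the 5 highest and 5 lowest that are not switched-on loci and have a mean of at least 20 in some group (log2 difference of the 2 changes, 2 replicates per group). The difference was positive for WNK9 (6.297, adjusted p = 0.032), AT5G28442 (1.47, adjusted p = 0.037), AT5G28150 (1.092, adjusted p = 0.0028), AT5G33300 (1.04, adjusted p = 0.0054) and GUS3 (0.819, adjusted p = 0.026). It was negative for AT5G33370 (-2.827, adjusted p = 0.012), AT5G35940 (-2.271, adjusted p = 0.019), EXT13 (-2.174, adjusted p = 0.0037), WRKY74 (-2.159, adjusted p = 0.044) and BZO2H3 (-1.696, adjusted p = 0.00079). WNK9 was low and uneven, with 30.1 and 18.4 in WT against 2.69 and 1.67 with tcx5/6, and 13.9 and 0 in ddm1 against 24.9 and 57.2 with both. The value of AT5G28442 is uncertain because 66.0% of its 31-base words recur in the genome. Of the 10, AT5G28150, EXT13 and BZO2H3 kept the call in every alternative, and AT5G33300 lost it only without tcx5/6 replicate 2 (adjusted p = 0.052).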

How the results depend on the processing

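Counts of called members changed by over 1.5 times in these settings. In tcx5/6 against WT seedlings, 14 became 4 with no filter on low values and 9 with the replicate block. In tcx5/6 ddm1 against ddm1, 63 became 25 on the compared groups alone. The interaction went from 25 to 11 with no filter. Leaving out 1 library gave 74 to 88 calls in ddm1 against WT, 71 to 92 in tcx5/6 ddm1 against tcx5/6, 2 to 4 in tcx5/6 against WT seedlings, 48 to 59 in tcx5/6 ddm1 against ddm1, 5 to 25 for the interaction, 49 to 60 in leaf, 25 to 32 in SAM and 82 to 88 in WT SAM against WT leaf. The replicate block is only a shared number, since the numbers did not pair the samples. Of 233 named results, 141 kept their call under all alternatives run and none reversed. The cause of these changes was not tested, beyond fewer samples in the fit. With 2 replicates per group, values near 1 and loci with repeated sequence are the least certain.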
